A study of Mus musculus with 9 samples.

Results

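The 7 genes described here, Cps1, Otc, Ass1, Asl, Arg1, Oat and Gls2, encode the 5 enzymes of the urea cycle and 2 enzymes that feed ornithine and glutamine nitrogen into or around it. They were chosen by name, and each stands on 1 of the 23746 rows of a table of liver RNA-seq values. Livers came from 9 male C57Bl/6 mice (C57BL6J/Ola.Hsd in the study's methods), with 1 library per mouse: 3 WT and 2 p21KO mice fed ad libitum, and 2 WT and 2 p21KO mice fasted for 24 h. p21KO mice lack Cdkn1a, the gene of the cell cycle inhibitor p21, in all tissues, and the study asked how its loss alters the response of the liver to food deprivation. Values are FPKM, reads scaled to transcript length and library size, and the number of reads behind them is unknown.

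The urea cycle is how the liver disposes of ammonia. In the mitochondria of periportal hepatocytes, carbamoyl phosphate synthetase 1 (Cps1) joins ammonia and bicarbonate, and ornithine transcarbamylase (Otc) passes the product to ornithine to give citrulline. In the cytosol, argininosuccinate synthetase (Ass1) and argininosuccinate lyase (Asl) turn citrulline and aspartate into arginine and fumarate, and arginase 1 (Arg1) splits arginine into urea and ornithine. Ornithine aminotransferase (Oat) breaks ornithine down to glutamate semialdehyde in the mitochondria, and the liver glutaminase Gls2 releases ammonia from glutamine close to Cps1. Fasted animals use amino acids from muscle protein for glucose, and the cycle carries away the nitrogen.

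The data showed 2 members that could be read in all 9 livers, Oat and Arg1, and both were higher after fasting in WT and in p21KO mice. Oat was about 3 times as high in fasted livers, with a ratio of mean FPKM of 2.81 in WT and 3.15 in p21KO mice. Arg1 was 1.60 times as high in fasted WT livers and 2.21 times as high in fasted p21KO livers. Neither gene passed the test between genotypes. Cps1 was higher after fasting under a looser reading. Values near Asl were higher in fasted livers of both genotypes, and the sum of those near Ass1 in fasted p21KO livers. These values could not be assigned with certainty. Within 20 rows of Otc the highest values were lower in fasted livers, but Otc was not lone in every library there. That distance was chosen after the values were seen, and within 10 rows the diets overlapped. Gls2 could not be read.

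Reading a gene across the livers needed care, because each column of the table keeps its own order of rows while the names stand in a single column. They fit the values of p21KO fasted replicate 2 best, though not on every row, and there Arg1, Oat and Cps1 held 1131, 565 and 1500 FPKM on their own rows. In the other columns the row named Cps1 held 0.0185 to 6.85 FPKM, and a value above 500 FPKM stood on a nearby row instead. The value of a gene was therefore taken as the highest FPKM within 10 rows of its name, and was called lone where it was at least 10 FPKM and at least 3 times the second highest of those 21 rows. A gene counted as readable when its value was lone in all 9 libraries, was on the named row in p21KO fasted replicate 2 and was shared with no other readable gene. Of 23044 names that stand on 1 row, 176 were readable (0.764%), and the tests below ran over these. Some readings among them were doubtful. In 8 of 704 combinations of gene and group the replicates spread over 3-fold. Il1rap was read at 602 FPKM in WT fed replicate 2, beside 51.6 and 52.0 FPKM in the other fed WT livers. A lone value is therefore not sure to belong to the gene named.

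The members differed widely in how well they could be read. Arg1 was lone in 9 of 9 libraries, with 27.9 to 120 times the second highest value around it. Oat was lone in 9 of 9 as well, at 6.46 to 15.6 times. Both were also lone in 9 of 9 libraries when 20 rows on each side were searched. Cps1 was lone in 4 libraries, Asl in 2, and Ass1 and Gls2 in 0. Otc was lone in 7, but in 3 of these, both fasted WT livers and p21KO fasted replicate 1, the lone value was 12.6 to 13.7 FPKM on a row 7 or 9 below the name, where the column of p21KO fasted replicate 2 has other genes.

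**Figure D1:**
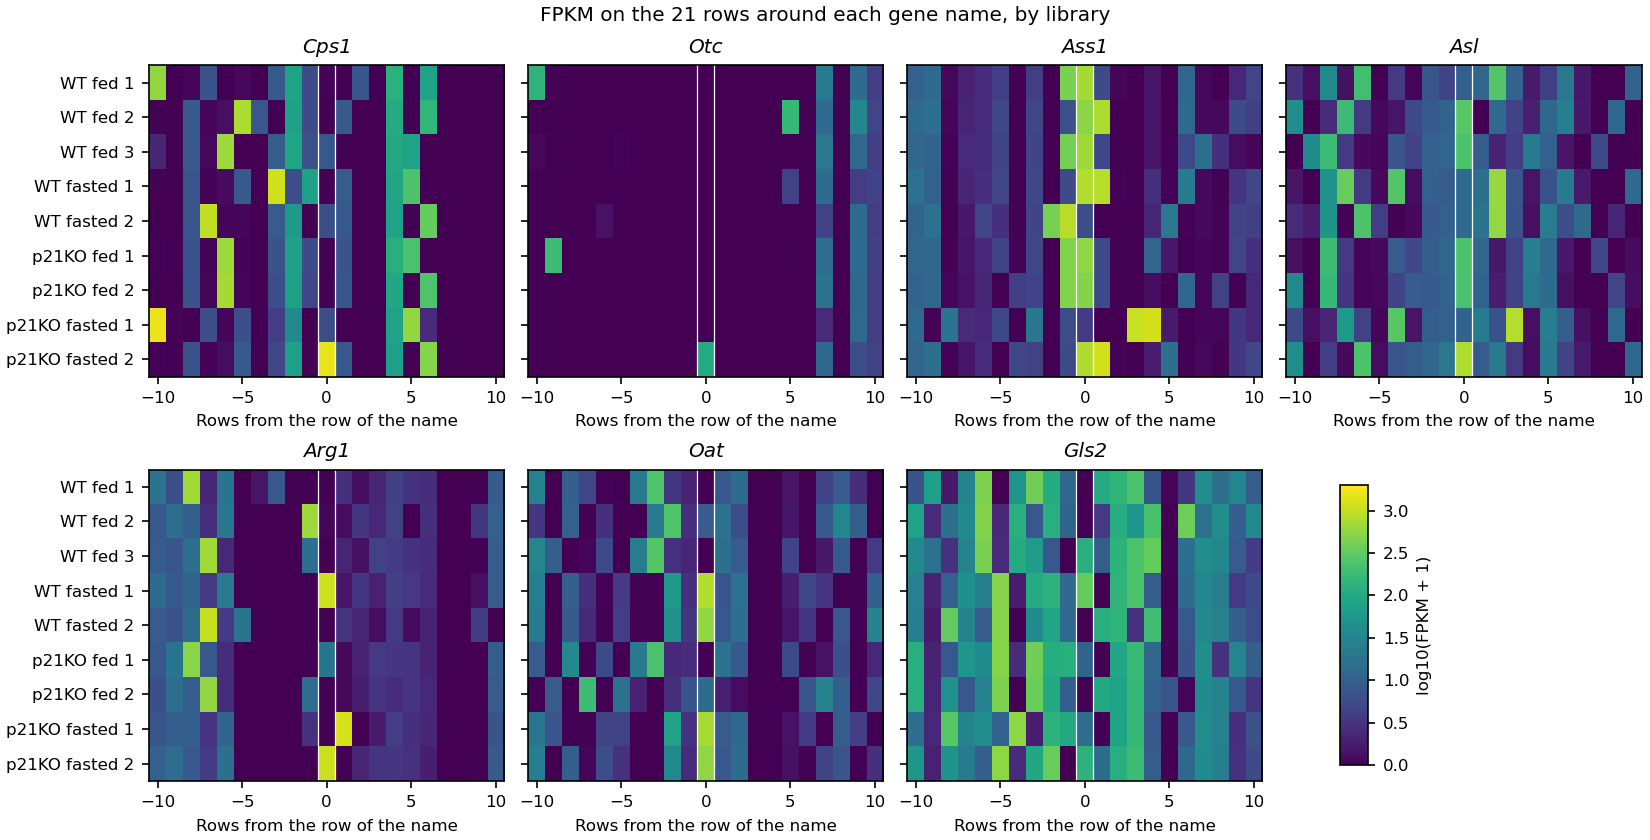
FPKM on the 21 rows around the name of each of the 7 members, as log10(FPKM + 1) in colour. Each line is a library, the horizontal axis is the distance in rows from the row that carries the name, and white lines bound that row. Arg1 and Oat have 1 bright row per library, which is on the named row in 2 and 4 of the 9 libraries, whereas Ass1 has 2 adjacent bright rows and Gls2 many.

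A few facts of the whole table bear on these values. FPKM summed to 349965 to 440780 per library, and 9584 to 10097 rows reached 1 FPKM. Over the 176 readable genes, p21KO fasted replicate 1 stood apart, with a median correlation of 0.871 with the other libraries where each of the rest had 0.932 to 0.963. Doubtful readings are part of this value. In that library Sdhd was read at 5271 FPKM 8 rows above its name, against 103 to 148 FPKM in the others. How far such readings lower the correlation was not tested. In p21KO fasted replicate 2, 7 of 8 hepatocyte markers reached 1 FPKM with a sum of 10547 FPKM, and Alb, the gene of albumin, was listed at 0 on its row, with no value above 15.4 FPKM within 10 rows of it. The 8 macrophage and leukocyte markers summed to 60.4 FPKM there, 4 endothelial markers to 15.2 FPKM and 4 cholangiocyte markers to 1.15 FPKM. The 5 stellate markers summed to 58.7 FPKM, of which Dcn alone held 55.6 FPKM, and 2 of 3 muscle markers were listed at 0. Ttr and Apoh were the readable markers of the list. Apoh ranged from 890 to 1082 FPKM over all libraries. Ttr ranged from 1880 to 2330 FPKM in fed and from 1030 to 1342 FPKM in fasted livers, opposite in direction to Oat and Arg1. Transferrin, on the marker list as Tf but named Trf in these data, was readable too. It ranged from 3596 to 5819 FPKM in fed and from 2059 to 3041 FPKM in fasted livers. The part of these shifts in the results was not tested. For a single gene, fewer hepatocytes and less RNA of that gene per hepatocyte cannot be told apart in bulk liver. Cdkn1a, the deleted gene, held 0 to 2.27 FPKM on its row and had no lone value near it (highest over second 1.02 to 1.72), so the genotype labels could not be checked against it.

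Oat encodes ornithine aminotransferase and lies on chromosome 7 of GRCm38.p6 from 132557475 to 132576398. Its promoter is shown because Oat had the larger fasting difference of both readable members, and Arg1 had no entry in the RefSeq promoter table used. The 250 bases before the start of transcription, from RefSeq on GRCm38.p6, chr7:132576399-132576648, minus strand, are printed 5′ to 3′ with capitals for matches to the CCAAT box:
Oat promoter: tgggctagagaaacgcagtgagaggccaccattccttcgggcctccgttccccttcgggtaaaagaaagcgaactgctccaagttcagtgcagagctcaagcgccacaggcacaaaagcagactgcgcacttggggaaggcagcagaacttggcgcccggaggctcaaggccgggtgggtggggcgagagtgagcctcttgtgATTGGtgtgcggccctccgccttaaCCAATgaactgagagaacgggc
The sequence is 60% G and C. Searched on both strands, CCAAT matched 2 times, once on each strand, and 33.8% of 32851 promoter windows of the same length hold it. No match was found for the cAMP response element TGACGTCA (in 1.55% of windows) or its half-site TGACG (17.8%), the FOXO motif GTAAACA (3.17%), the glucocorticoid half-site AGAACA (16.1%), the nuclear receptor half-site AGGTCA (14.0%) or the HNF4 motif CAAAGTCCA (0.384%). The short motifs lie within longer ones and are not independent of them. These letters describe this window alone.

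In fed WT livers Oat stood at 248, 247 and 265 FPKM, and in fasted WT livers at 842 and 579 FPKM. In fed p21KO livers it stood at 224 and 190 FPKM, and in fasted p21KO livers at 739 and 565 FPKM. The 4 fasted livers were all above the 5 fed livers, and the lowest fasted value was over 2 times the highest fed value. How many of all readable genes keep the diets apart was not counted, here or for the genes below. Group means were 253 ± 10.1 (SD, n = 3), 711 ± 186 (SD, n = 2), 207 ± 24.2 (SD, n = 2) and 652 ± 123 FPKM (SD, n = 2) in that order, so the fasted livers spread more widely than the fed ones.

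The fasting difference of Oat in WT mice was 1.46 on the log2(FPKM + 1) scale (SE 0.180, adjusted p = 0.000926, limma with Benjamini-Hochberg adjustment over the 176 genes). Of these genes 30.7% were called in WT, 34 of them higher (19.3%) and 20 lower (11.4%), and Oat ranked 3 of 34 by size among those called higher. In p21KO mice the difference was 1.64 (SE 0.197, limma adjusted p = 0.000759), ranked 2 of 34, where 29% of genes were called, 19.3% higher and 9.66% lower. Over both genotypes it was 1.55 (SE 0.133, limma adjusted p = 5.6e-05), ranked 2 of 50, against a background of 47.7% called, 28.4% higher and 19.3% lower. An exact permutation test, two-sided, with diet labels permuted within genotype gave p = 0.0167, the smallest that 60 arrangements allow.

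The row on which Oat was found moved with diet. It was the named row in all 4 fasted livers, whereas in the 5 fed livers the lone value stood 2 to 7 rows above the name and the named row held 0.0206 to 13.7 FPKM. The second highest value was 36.3 to 78.3 FPKM, 2 rows above the name, in the fasted livers, and 27.7 to 34.6 FPKM at places from 10 rows above to 8 rows below in the fed livers. No second value near the fed level of Oat stood in the fasted windows. The assignment of the fed values to Oat rests on the reading rule and was not tested in another way.

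Between genotypes Oat differed by -0.30 in fed livers (p21KO minus WT, log2 scale, 95% interval -0.71 to 0.12, limma adjusted p = 0.874). In fasted livers the difference was -0.11 (95% interval -0.57 to 0.34, limma adjusted p = 0.925). The lower fed p21KO values did not overlap the fed WT values, but the interval includes no difference and allows up to 0.71 lower. The fasting effect itself differed by 0.18 between genotypes (95% interval -0.43 to 0.80, limma adjusted p = 0.95). An exact permutation test, two-sided, with genotype labels permuted within diet gave a mean difference of -0.20 and p = 0.217. At an adjusted p under 0.05, 0.568% of the 176 genes (1 gene) were called between genotypes in fed livers, with 15 at an unadjusted p under 0.05. In fasted livers and for the difference of the effects limma called 0%, with 26 and 9 genes at an unadjusted p under 0.05.

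Arg1 encodes the cytosolic arginase that completes the cycle, and lies on chromosome 10 of GRCm38.p6 from 24915207 to 24927470. It was the member that stood out most clearly from its surroundings, since no other value within 10 rows exceeded 21.4 FPKM in any library. In fed WT livers it stood at 689, 651 and 692 FPKM, and in fasted WT livers at 1140 and 1031 FPKM. In fed p21KO livers it stood at 513 and 576 FPKM, and in fasted p21KO livers at 1277 and 1131 FPKM. The fasted livers were again all above the fed ones. Means were 678 ± 22.7 (SD, n = 3) in fed WT, 1086 ± 77.4 (SD, n = 2) in fasted WT, 544 ± 44.5 (SD, n = 2) in fed p21KO and 1204 ± 104 FPKM (SD, n = 2) in fasted p21KO livers.

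**Figure D2:**
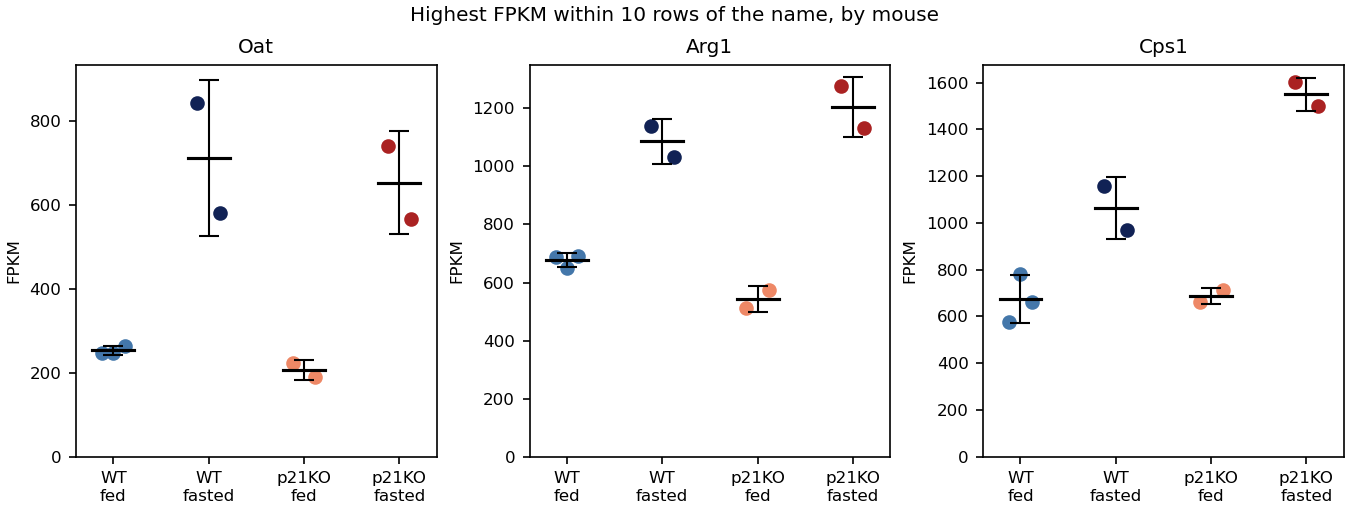
Highest FPKM within 10 rows of the name for Oat, Arg1 and Cps1 in each of the 9 mice. Points are mice, horizontal bars the group means and error bars 1 SD (n = 3 in fed WT, n = 2 in the other groups), and the vertical axes start at 0. In each panel the 4 fasted livers lie above the 5 fed livers, for Oat at 565 to 842 against 190 to 265 FPKM. The share of all readable genes that keep the diets apart was not counted.

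Arg1 rose with fasting by 0.68 on the log2(FPKM + 1) scale in WT mice (SE 0.105, limma adjusted p = 0.00249), ranked 21 of the 34 genes called higher. In p21KO mice the rise was 1.14 (SE 0.115, limma adjusted p = 0.000324), ranked 10 of 34. Over both genotypes it was 0.91 (SE 0.078, limma adjusted p = 5.6e-05), ranked 15 of 50, and the exact permutation test, two-sided, gave p = 0.0167, again the smallest possible. Arg1 was thus among the middle of the genes that rose in WT livers, while Oat was near the top. In fasted livers the second highest value around Arg1 was 10.6 to 21.4 FPKM, far from its fed level. The Arg1 value was on the named row in 2 libraries, WT fasted replicate 1 and p21KO fasted replicate 2. In the others it stood from 8 rows above the name to 1 row below, and the named row held 0 to 18.3 FPKM. As for Oat, the assignment rests on the reading rule and was not tested in another way.

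Both fed p21KO livers had less Arg1 than all 3 fed WT livers, and the fasted groups lay 1131 to 1277 FPKM in p21KO against 1031 to 1140 FPKM in WT, overlapping. The fed difference was -0.32 (p21KO minus WT, 95% interval -0.56 to -0.08), with an unadjusted p of 0.0160 and a limma adjusted p of 0.352. The fasted difference was 0.15 (95% interval -0.12 to 0.41, limma adjusted p = 0.702). The fasting effect was 0.47 larger in p21KO mice (95% interval 0.11 to 0.82), with an unadjusted p of 0.0168 that did not pass adjustment (limma adjusted p = 0.698). A mean genotype difference of -0.08 had p = 0.5 by the exact permutation test, two-sided.

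**Figure D3:**
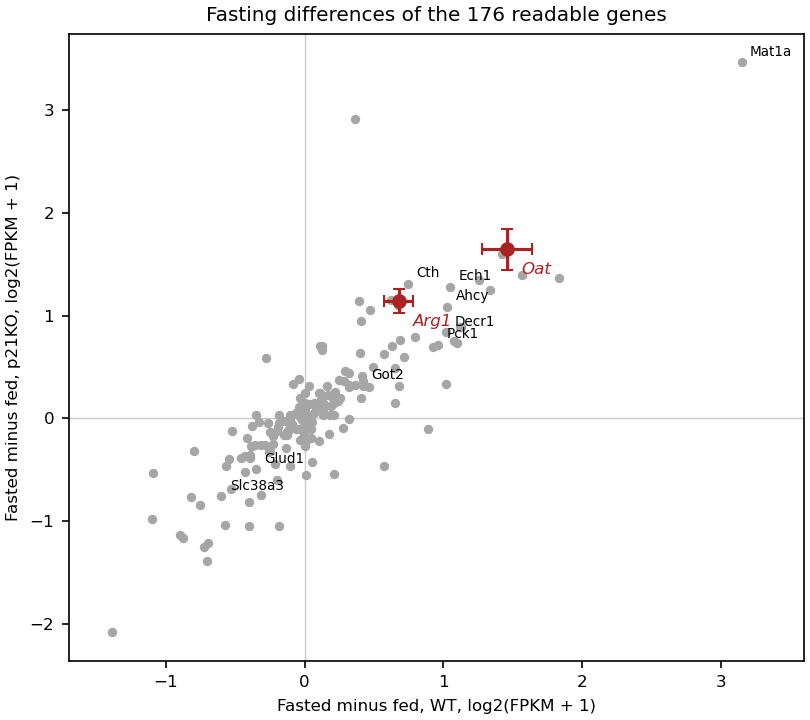
Fasting difference (fasted minus fed, log2(FPKM + 1)) in WT mice on the horizontal axis and in p21KO mice on the vertical axis for the 176 readable genes (grey), with Oat and Arg1 in red and error bars of 1 SE. Oat lies at 1.46 and 1.64, and Arg1 at 0.68 and 1.14, and labels name genes of the nitrogen and amino acid lists and genes with a like pattern.

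Cps1 encodes the mitochondrial enzyme that takes ammonia into the cycle and lies on chromosome 1 of GRCm38.p6 from 67122426 to 67231267. The highest value around its name was 575, 781 and 664 FPKM in fed WT livers and 1156 and 968 FPKM in fasted WT livers. It was 662 and 713 FPKM in fed p21KO livers and 1601 and 1500 FPKM in fasted p21KO livers. All 4 fasted values exceeded all 5 fed values. Both fasted p21KO values exceeded both fasted WT values, but this difference did not pass adjustment (limma adjusted p = 0.239 in the looser reading below). Means were 673 ± 103 (SD, n = 3), 1062 ± 133 (SD, n = 2), 687 ± 36.0 (SD, n = 2) and 1551 ± 71.1 FPKM (SD, n = 2) in the order given. The value stood from 10 rows above the name to the named row.

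Cps1 was not readable under the 3-fold rule because a second value of 100 to 578 FPKM stood 4 to 6 rows below the name, on rows from the one named Rpl37a to the one named Igfbp2, in all 9 libraries. With a factor of 2 in place of 3, 284 genes were readable and Cps1 among them. In that reading its fasting difference was 0.66 in WT mice (SE 0.151, limma adjusted p = 0.0199), where 23.6% of genes were called, 14.1% higher and 9.51% lower. In p21KO mice it was 1.17 (SE 0.166, limma adjusted p = 0.00311), where 22.5% were called, 13.7% higher and 8.8% lower. Over both genotypes it was 0.92 (SE 0.112, limma adjusted p = 0.000764), close to the 0.91 of Arg1, with 42.3% called, 22.9% higher and 19.4% lower. The exact permutation test, two-sided, gave p = 0.0167.

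Between genotypes Cps1 differed by 0.04 in fed livers (95% interval -0.31 to 0.39). In fasted livers it was 0.55 higher in p21KO than in WT mice (95% interval 0.16 to 0.94), with an unadjusted p of 0.0115 and a limma adjusted p of 0.239. The fasting effect was 0.51 larger in p21KO mice (95% interval -0.01 to 1.03, limma adjusted p = 0.763). Over both diets the genotype difference was 0.29 with p = 0.15 by the exact permutation test, two-sided. In this reading limma called 0 of 284 genes in each of these 3 comparisons, with 21, 39 and 16 genes at an unadjusted p under 0.05.

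Ass1 encodes the enzyme that joins citrulline to aspartate and lies on chromosome 2 of GRCm38.p6 from 31470270 to 31520670. Around its name 2 high values stood on adjacent rows in all 9 libraries, so that none was lone. The row after Ass1 is named Gm5424, which RefSeq annotates as a transcribed pseudogene on chromosome 10 from 62071022 to 62072571. The lower of the values was on the upper row in 9 of 9 libraries. On the named rows of p21KO fasted replicate 2 Ass1 held 809 FPKM and Gm5424 held 1198 FPKM.

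The sequences of both are shown because they bear on whether their reads can be told apart. Positions 370 to 429, counted from 1 at the first base of the Ass1 reading frame and of the Gm5424 transcript, are given from GENCODE vM21 transcripts (GRCm38), 5′ to 3′, with the mismatches in capitals:
Ass1: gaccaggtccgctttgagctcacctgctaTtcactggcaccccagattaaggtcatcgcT
Gm5424: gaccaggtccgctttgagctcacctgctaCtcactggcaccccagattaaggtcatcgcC
Of the 1190 stretches of 50 bases in the Ass1 reading frame of 1239 bases, 910 (76.5%) are identical in Gm5424, and 100% lie within 2 mismatches. The reads of the study were 50 bases long and were aligned with up to 2 mismatches and several hits, so most reads of the reading frame fit both loci. How the FPKM of Ass1 was split from that of Gm5424 is uncertain, and only their sum is given for the comparison of diets. The sum is not free of the split either. FPKM is scaled to length, and the transcripts are 1696 (Ass1) and 1240 bases (Gm5424) long in GENCODE.

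The sum of both values was 1146, 1320 and 1086 FPKM in fed WT livers and 1719 and 1298 FPKM in fasted WT livers. It was 1038 and 951 FPKM in fed p21KO livers and 2276 and 2008 FPKM in fasted p21KO livers. Fed and fasted WT livers overlapped, whereas both fasted p21KO livers lay above all others. The ratio of fasted to fed means was 1.27 in WT and 2.15 in p21KO mice. These are descriptions with no test, since Ass1 was not readable by the rule and the sum was chosen after its values were seen.

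Asl encodes the lyase that releases arginine and fumarate and lies on chromosome 5 of GRCm38.p6 from 130011258 to 130024381. The highest value near its name stood on the named row or up to 3 rows below it in all 9 libraries. It was 262, 281 and 229 FPKM in fed WT, 619 and 602 FPKM in fasted WT, 231 and 223 FPKM in fed p21KO and 854 and 806 FPKM in fasted p21KO livers. All fasted values were more than 2 times the highest fed value, with a ratio of means of 2.37 in WT and 3.65 in p21KO mice. A second value of 160 to 337 FPKM stood 4 to 8 rows above the name in every library, so the fed values of both could not be told apart by size. Asl was lone only in the 2 fasted p21KO livers, and no test was made.

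Otc encodes the enzyme that makes citrulline and lies on the X chromosome of GRCm38.p6 from 10252230 to 10321024. Its row held 106.5 FPKM in p21KO fasted replicate 2 and 0 in the other 8 libraries. Within 20 rows, a distance chosen after the values were seen, the highest value was 138, 162 and 144 FPKM in fed WT livers and 114 and 97.9 FPKM in fasted WT livers. It was 180 and 167 FPKM in fed p21KO livers and 50.3 and 106.5 FPKM in fasted p21KO livers. The fasted values were all below the fed ones, opposite in direction to Oat, Arg1 and Cps1, with a ratio of fasted to fed means of 0.714 in WT and 0.453 in p21KO mice. The value of 50.3 FPKM in p21KO fasted replicate 1, the library that stood apart, was 1.73 times the second highest, and a value 16 or 17 rows below the name of 29.1 to 42.5 FPKM was present in all 9 libraries. Otc was lone in 6 libraries at this distance, so these values were not tested.

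Gls2 encodes the liver glutaminase and lies on chromosome 10 of GRCm38.p6 from 128194635 to 128210004. Its row held 134 FPKM in p21KO fasted replicate 2, 332 FPKM in WT fasted replicate 1, 120 FPKM in WT fed replicate 3 and 0 to 14.4 FPKM in the others. Its surroundings were crowded, with a highest value of 427 to 542 FPKM 4 to 6 rows above, near the row named Atp5b, and a second of 277 to 382 FPKM. Gls2 was lone in 0 libraries, and no value can be read for it across libraries.

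**Figure D4:**
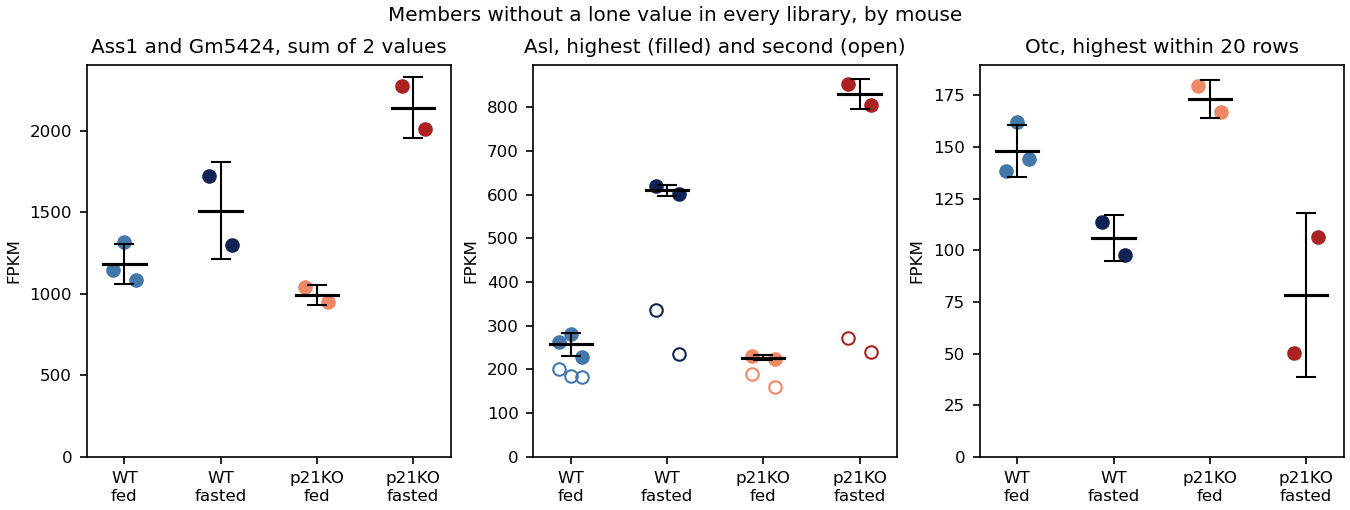
FPKM by mouse for members without a lone value in every library: the sum of the Ass1 and Gm5424 values, the highest (filled) and second highest (open) value near Asl, and the highest value within 20 rows of Otc. Bars are means of the filled points, error bars 1 SD (n = 3 in fed WT, n = 2 in the other groups), and the vertical axes start at 0. Values near Asl were 223 to 281 FPKM in fed and 602 to 854 FPKM in fasted livers, and those near Otc 138 to 180 and 50.3 to 114 FPKM.

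On the named rows of p21KO fasted replicate 2, the library that the names fit best, the order of FPKM was Cps1 (1500), Arg1 (1131), Ass1 (809), Asl (806), Oat (565), Gls2 (134) and Otc (106.5). FPKM is per length of transcript, so these levels can be set beside each other within this 1 library, with the split of Ass1 from Gm5424 and the fit of the names as limits. Ass1 and Asl lay within 1% of each other, and with 1 library the order of neighbours has no measured error.

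Genes that supply the cycle with nitrogen were mostly unreadable: 2 of 12 urea cycle partners could be read. Glud1, the mitochondrial glutamate dehydrogenase that releases ammonia, ranged from 209 to 241 FPKM in fed and from 146 to 195 FPKM in fasted livers, and fell by 0.42 on the log2 scale over both genotypes (SE 0.091, limma adjusted p = 0.00597). Got2, the mitochondrial aspartate aminotransferase, ranged from 146 to 159 FPKM in fed and from 172 to 212 FPKM in fasted livers, and rose by 0.37 (SE 0.079, limma adjusted p = 0.00592). The pair thus moved in opposite directions, and for both genes the diets did not overlap. Within a genotype Glud1 was called in p21KO mice but not in WT (limma adjusted p = 0.0626), and Got2 in WT but not in p21KO mice (limma adjusted p = 0.0729). Of 25 genes of ornithine, proline, polyamine and glutamine metabolism, 1 was readable. That gene, Slc38a3, encodes a glutamine transporter of hepatocytes and fell by 0.68 (SE 0.188, limma adjusted p = 0.0181), from 522 to 656 FPKM in fed to 264 to 495 FPKM in fasted livers, but was not called in WT or p21KO mice alone (limma adjusted p = 0.111 and 0.0729).

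Of 34 genes of amino acid catabolism, 9 were readable, and 7 of them were called higher after fasting over both genotypes, 0 lower, where 28.4% of all readable genes were called higher. Their median difference was 0.76, beside 0.03 over all 176 genes. In WT alone 4 were called higher and in p21KO mice 6, against 19.3% of readable genes in each. All these counts include Mat1a, whose reading was doubtful, as given below. Cth, which makes cysteine from cystathionine, rose from 94.9 to 138 FPKM in fed to 174 to 282 FPKM in fasted livers (log2 difference 1.03, SE 0.139, limma adjusted p = 0.000591). Ahcy, which clears S-adenosylhomocysteine, rose from 476 to 607 FPKM to 1027 to 1361 FPKM (1.06, SE 0.109, limma adjusted p = 0.00013). Serine dehydratase (Sds) rose by 0.76, the tyrosine pathway enzymes Hpd and Hgd by 0.77 and 0.40, and Bckdhb, a subunit of the branched-chain keto acid dehydrogenase, by 0.33. Gstz1 (0.08) and Gnmt (0.17) did not pass the test.

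The remaining call, Mat1a, the liver methionine adenosyltransferase, had the highest difference (3.31), but its reading was doubtful. Its lone value was 286 to 335 FPKM 3 to 10 rows above the name in fed livers and 2661 to 3871 FPKM 1 row above to 4 rows below it in fasted livers. In the fasted windows a second value of 369 to 552 FPKM stood 3 to 5 rows above the name, close to the fed level, so it is not settled that the fed and the fasted value belong to the same gene. Of 9 gluconeogenesis and fasting genes 2 were readable. Pck1, the cytosolic phosphoenolpyruvate carboxykinase, rose from 593 to 847 FPKM in fed to 1134 to 1393 FPKM in fasted livers (0.84, SE 0.115, limma adjusted p = 0.000636), and Fbp1, fructose bisphosphatase, stood at 0.03. None of the genes in these lists was called between genotypes in fed or in fasted livers, or for the difference of the fasting effect.

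The readable genes most like Oat over the 9 libraries, by Pearson correlation of log2(FPKM + 1), were Ech1 (0.976), Mat1a (0.975) and Decr1 (0.968). Those most like Arg1 were Ech1 (0.964), Oat (0.964) and Mat1a (0.962). The reading of Mat1a was doubtful, as given above. Ech1 and Decr1 encode enzymes of the oxidation of unsaturated fatty acids. Ech1 rose from 134 to 162 FPKM in fed to 294 to 403 FPKM in fasted livers, and Decr1 from 44.0 to 50.6 FPKM to 75.2 to 98.7 FPKM. All these correlations are across 9 libraries that form a fed and a fasted cluster, and they describe that shared step.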

How the data were processed

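RNA-seq of 9 livers was read from the deposited table, in which the authors gave FPKM values on 23746 rows, made with TopHat and Cufflinks on mm10 (the submitters' processing notes list TopHat2 2.0.4 and Cufflinks 2.2.1 and 1.3.0). Read counts were not used here, so the depth is unknown. Library preparation differs between labels (stranded TruSeq) and paper (SMARTer). Since columns keep their own row order, values were read as described above. limma 3.58.1 (R 4.3.3) was fitted on log2(FPKM + 1) of the 176 readable genes with 4 group means and a variance trend, with Benjamini-Hochberg adjustment and calls at an adjusted p under 0.05. The procedure was run on data simulated from p21KO fasted replicate 2 with random row shifts. That run does not show whether the values read here belong to the genes named. Replicates are separate mice. Members, gene lists, markers and tests were chosen with earlier results of these data known. Named genes were the 7 members, the 3 readable genes most like each readable member, and the readable genes of 4 lists (urea cycle partners, ornithine and glutamine metabolism, amino acid catabolism, gluconeogenesis). Alternatives changed the window, factor, minimum, pseudocount, scaling and libraries. The sum for Ass1 and the wider window for Otc were chosen after seeing the data.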

Additional observations from a re-analysis of the deposited data

How the results depend on the processing

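Under the alternatives that kept them readable, other than the rows as deposited, all 112 values of the fasting differences of Oat (1.19 to 1.84) and Arg1 (0.61 to 1.23) kept their direction and stayed called by limma, with a highest adjusted p of 0.00955 and 0.0274. Within 5 rows, or with no condition on p21KO fasted replicate 2, 0 members were readable, so Oat and Arg1 have no value there. Without that condition neighbouring names can take the same value, and leaving out shared rows cut 3342 genes to 53. Oat and Arg1 met every other condition in that setting, so their loss there came from the rule on shared rows. On the rows as deposited, where the named row gave another value in 12 of 18 cases, the fasting differences were 8.38 and 7.38 for Oat (limma adjusted p 0.0682 and 0.149) and 5.03 and 2.94 for Arg1 (0.819 and 0.923) in WT and p21KO mice, and over both genotypes 7.88 for Oat, still called (0.0253), and 3.98 for Arg1 (0.731). There the genotype differences changed sign: Oat 0.89 fed and -1.0 for the difference of effects, Arg1 2.09 fed, -0.0084 fasted and -2.10 for the difference, and 0.39 and 1.04 over both diets. These values are whatever stood on the named row. Leaving out a library turned the Oat genotype difference in fasted livers (-0.38 to 0.16; 0.16 without WT fasted replicate 1, 0.08 without p21KO fasted replicate 2) and the difference of effects (-0.086 to 0.45; -0.086 without WT fasted replicate 2, -0.0090 without p21KO fasted replicate 1), none of them called. Without any 1 fed WT library the exact permutation p for fasting was 0.0556 for both genes, the smallest that arrangements then allow.

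Counts of called genes moved more, but the number of genes tested moved too, so these counts are not shares of 1 set. The main reading tested 176 genes, a factor of 5 tested 91 and a factor of 2 tested 284. Within 20 rows there were 89, within 5 rows 323, at 50 FPKM 151 and without a minimum 179. With no condition on p21KO fasted replicate 2 there were 53, and as deposited 4330. Fasting in WT (54) gave 31 at a factor of 5, and 9 with no condition on p21KO fasted replicate 2. Fasting in p21KO (51) gave 26, 16 and, within 20 rows, 30. Over both genotypes (84) these were 44, 20 and 43, and 54 as deposited. p21KO against WT in fed livers (1) gave 2 at 50 FPKM or within 5 rows, 0 at a factor of 2 or with no such condition, and 22 as deposited. In fasted livers (0) it gave 1 without a minimum, within 5 rows or with median ratio scaling, and 26 as deposited. The difference of effects (0) gave 1 without a minimum or within 5 rows, and 22 as deposited. Leaving out 1 library gave 29 to 74 (29 and 32 without WT fasted replicate 2 or 1), 37 to 63, 63 to 92, 0 to 3, 0 to 20 and 0 to 12 in the same order, with 20 and 12 without p21KO fasted replicate 2. The cause of these shifts was not tested. Same-numbered mice deviated together with r of -0.085 to 0.497 over 12 pairs, highest between WT fed and WT fasted replicate 2. In groups of 2 the deviations mirror each other, so several pairs repeat the same r. Whether the numbers pair the mice cannot be decided from these values. A replicate block gave 33, 39, 78, 0, 0 and 0 calls.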

Other observations

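Glo1, named after its values were seen, encodes glyoxalase 1 and was the single gene called between genotypes. It stood at 157, 143 and 144 FPKM in fed WT and 449 and 327 FPKM in fed p21KO livers, and at 112 and 112 FPKM in fasted WT and 148 and 230 FPKM in fasted p21KO livers. The fed difference was 1.37 (p21KO minus WT, log2 scale, SE 0.198, limma adjusted p = 0.0205). With WT fed replicate 3 or p21KO fed replicate 2 left out, 0 genes were called. On GRCm38.p6 Glo1 lies on chromosome 17, 1.49 Mb from Cdkn1a, the gene deleted in p21KO mice.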
